A study of Mus musculus with 111 samples.

Results

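The genes described here are the homeobox developmental regulators on the array: every gene whose symbol begins with Hoxa, Hoxb, Hoxc, Hoxd, Pax, Lhx, Nkx, Pou, Dlx, Otx, Onecut, Irx, Meis or Pbx, or with the Six- prefix, followed by a digit, and that has a probe set assigned to it alone. The rule, which uses names and no measured value, found 112 of 18194 genes in 15 families. There were 36 genes of the 4 Hox clusters (10 Hoxa, 10 Hoxb, 7 Hoxc and 9 Hoxd), 12 Nkx, 12 Pou, 10 Dlx, 9 Lhx, 9 Pax, 6 Irx, 6 Six-family, 3 Meis, 3 Pbx, 3 Otx and 3 Onecut genes. By RefSeq, 101 of them are protein-coding, 10 are long non-coding RNAs and 1 is an antisense RNA. The rule goes by name, so a member need not encode a homeodomain. Pou2af1, for example, encodes a co-activator of POU proteins that has no homeodomain of its own. Each gene is represented by its brightest probe set on average across the arrays; 65 genes had 1 probe set and 47 had several.

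The series measured striatal cells of 2 mouse models of Huntington's disease on Affymetrix arrays. R6/2 carries a fragment of the human huntingtin gene with an expanded CAG repeat as a transgene, and zQ175 carries an expanded repeat in the mouse huntingtin gene itself. R6/2 mice and their WT littermates were taken at 6 and 12 weeks, zQ175 mice and their WT littermates at 6 and 12 months. Dissociated cells were sorted by 2 surface proteins, GLT1, a glutamate transporter of astrocytes, and CD11b, a protein of microglia. Those with GLT1 alone are the astrocytes (GLT1+/CD11b-), those with CD11b alone the microglia, and those with neither the negative cells. The 111 arrays fall into 24 groups of 4 to 6, from 37 numbered pools that each gave the 3 fractions: 5 WT and 5 R6/2 at 6 weeks, 5 WT and 6 R6/2 at 12 weeks, and 4 WT and 4 zQ175 at 6 and at 12 months. In all groups, controls included, the subventricular zone had been cut away, and striata of a litter had been pooled by genotype, so that a sample is a pool of mice and a p-value measures the spread between pools. No source used here gives the sex of the mice, the sort day or an array batch. Because the samples are bulk RNA, a lower signal from fewer cells of a type and from less RNA in each cell cannot be told apart.

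Homeobox genes encode transcription factors that bind DNA through a homeodomain and give cells their identity along the body axis and within organs. The Hox clusters pattern the hindbrain, spinal cord and trunk and are normally silent in the forebrain, where Polycomb complexes keep the clusters shut by marking histone H3. Dlx, Lhx, Nkx, Otx, Pax and Pou genes, and those of the Six-type, divide the embryonic brain into territories, and some of them continue to be expressed in adult glia and neurons. Meis and Pbx proteins are partners that bind DNA together with Hox proteins. The comparison of interest is whether genes of these families, most of them low in adult striatal cells, were higher in the mutants.

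The promoters of 7 called members that recur below, chosen after their values were seen, are shown first, because silent developmental genes of this kind often lie in CpG-rich DNA. Each sequence is the 250 bases before the RefSeq start of the gene on GRCm38.p6, written 5′ to 3′ on the gene's strand, with the capitals marking CG dinucleotides. They are Pou4f1 (chr14:104468000-104468249, minus strand, 47 CG), Irx3 (chr8:91801655-91801904, minus strand, 13 CG), Hoxd1 (chr2:74762730-74762979, plus strand, 24 CG), Hoxd3 (chr2:74711743-74711992, plus strand, 12 CG), Six3 (chr17:85620584-85620833, plus strand, 10 CG), Nkx2-2 (chr2:147186403-147186652, minus strand, 8 CG) and Nkx2-9 (chr12:56613285-56613534, minus strand, 13 CG).
Pou4f1: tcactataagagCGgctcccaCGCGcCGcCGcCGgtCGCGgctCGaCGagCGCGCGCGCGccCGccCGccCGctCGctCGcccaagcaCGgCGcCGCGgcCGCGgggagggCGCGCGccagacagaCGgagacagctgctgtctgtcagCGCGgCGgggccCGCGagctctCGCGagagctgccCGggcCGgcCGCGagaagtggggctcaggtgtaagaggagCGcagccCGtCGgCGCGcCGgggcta
Irx3: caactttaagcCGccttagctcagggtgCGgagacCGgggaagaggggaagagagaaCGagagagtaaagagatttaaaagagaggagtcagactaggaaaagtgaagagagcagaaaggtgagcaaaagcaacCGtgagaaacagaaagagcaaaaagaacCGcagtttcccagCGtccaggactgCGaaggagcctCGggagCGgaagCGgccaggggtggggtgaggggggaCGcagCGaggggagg
Hoxd1: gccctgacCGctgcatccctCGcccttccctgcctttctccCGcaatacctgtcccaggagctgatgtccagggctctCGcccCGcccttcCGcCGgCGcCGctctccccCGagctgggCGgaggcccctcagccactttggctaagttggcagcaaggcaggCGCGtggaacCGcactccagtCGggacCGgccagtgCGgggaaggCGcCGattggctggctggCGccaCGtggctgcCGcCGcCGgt
Hoxd3: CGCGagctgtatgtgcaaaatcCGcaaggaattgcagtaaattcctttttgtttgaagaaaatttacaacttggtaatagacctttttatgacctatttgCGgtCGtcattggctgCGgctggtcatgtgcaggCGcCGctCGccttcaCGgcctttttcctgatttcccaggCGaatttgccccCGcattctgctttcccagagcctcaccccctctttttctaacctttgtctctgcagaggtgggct
Six3: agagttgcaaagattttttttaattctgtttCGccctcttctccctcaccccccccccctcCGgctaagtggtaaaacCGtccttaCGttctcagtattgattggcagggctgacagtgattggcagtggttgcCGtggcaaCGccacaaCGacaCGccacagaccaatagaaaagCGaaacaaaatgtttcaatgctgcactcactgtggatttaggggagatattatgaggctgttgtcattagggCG
Nkx2-2: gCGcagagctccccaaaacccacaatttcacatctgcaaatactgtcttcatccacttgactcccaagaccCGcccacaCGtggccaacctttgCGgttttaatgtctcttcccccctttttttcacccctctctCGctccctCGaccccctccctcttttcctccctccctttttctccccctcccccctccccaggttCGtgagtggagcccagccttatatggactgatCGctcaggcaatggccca
Nkx2-9: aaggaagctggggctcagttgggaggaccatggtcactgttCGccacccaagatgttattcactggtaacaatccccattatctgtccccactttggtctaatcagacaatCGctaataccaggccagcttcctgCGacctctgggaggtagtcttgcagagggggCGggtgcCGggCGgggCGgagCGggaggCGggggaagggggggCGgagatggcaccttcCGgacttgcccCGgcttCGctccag
The motif searched was CG, which reads the same on both strands. Among 27025 RefSeq promoter windows of this length the median was 6 CG, with quartiles of 2 and 16, and 91.7% held at least 1. The share of windows with as many CG was 0.244% for Pou4f1 and 11.7% for Hoxd1. It was 31.8% for Irx3 and Nkx2-9, 33.8% for Hoxd3, 38.2% for Six3 and 43.4% for Nkx2-2. Only 76 of the 112 members (67.9%) were matched to a window, so the members as a set were not compared with other genes on this property. Irx5, Onecut2 and Hoxb6 are named without a sequence.

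Most of the 112 genes had low signals. Over all 111 arrays, 30 of them (26.8%) had a mean at or above the 40th percentile of all 45101 probe sets, against 68.6% of the 18194 genes. The fractions carried their defining markers: in the 12-week astrocyte samples the mean over the astrocyte marker list was 12.57 to 12.69 log2 units in WT and 12.26 to 12.58 in R6/2, and in the 12-week microglia samples the mean over the microglia marker list was 12.50 to 12.90 and 12.70 to 12.78. The astrocyte fraction also carried oligodendrocyte transcripts, with a mean over that marker list of 12.25 to 12.47 in WT and 11.62 to 12.25 in R6/2 at 12 weeks. The mean of the Y-linked genes ranged from 2.80 to 8.66 in the 12-week WT astrocytes and from 7.41 to 9.26 in R6/2, so the pools differed in their share of male RNA. In zQ175 microglia at 12 months, replicate 31 stood apart from the other 3, with an endothelial and mural marker mean of 9.69 and an oligodendrocyte precursor marker mean of 8.04. The negative sample with the same pool number had a microglia marker mean of 10.47.

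In WT samples, most members differed between the fractions, as did most genes on the array. Of the 112 genes, 27 were higher and 61 lower in WT astrocytes than in WT microglia (18 pools each, limma with Benjamini-Hochberg adjustment over all genes, adjusted p below 0.05), where 81% of all genes were called, 35.6% higher and 45.4% lower. The members' shares were 78.6% in all, 24.1% higher and 54.5% lower. With genes below the 40th percentile of all probe sets left out, 17 members were higher and 9 lower (10680 of 12477 genes called). Pou3f2, a POU factor of neural precursors, was at 11.47 ± 0.16 (SD, n = 18) in astrocytes and 5.36 ± 0.93 in microglia, a difference of +6.11. Lhx2, which patterns the forebrain, followed at +5.88, then Nkx2-2 at +4.85, Meis2 at +4.64 and Pax6 at +4.11. The order was turned for Pou2f2, a POU factor of lymphoid and myeloid cells, at 4.23 ± 0.42 in astrocytes and 10.74 ± 0.36 in microglia, a difference of -6.50. Hoxb4 (-1.95), Meis3 (-1.43), Pbx2 (-1.18) and Pou5f1 (-0.77) were also lower in astrocytes than in microglia. At 12 weeks the oligodendrocyte list mean was 12.25 to 12.47 in WT astrocytes and 6.59 to 8.98 in WT microglia. The part of oligodendrocyte transcripts in these differences, that of Nkx2-2 among them, was not tested.

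Against the WT negative fraction, 51 members were higher and 22 lower in astrocytes, 65.2% of the 112 in all, where 67.6% of all genes were called, 37.3% higher and 30.3% lower. Six3, a regulator of the anterior forebrain and the eye, was at 8.65 ± 0.28 in astrocytes and 5.59 ± 0.36 in negative cells (SD, n = 18), a difference of +3.06. Its non-coding neighbour Six3os1 differed by +3.81, Lhx2 by +3.32, Otx1 by +2.53 and Otx2 by +2.01. The genes of the ganglionic eminence and its interneurons were on the other side: Dlx6os1 at -6.40, Dlx1 at -4.99, Dlx5 at -4.94 and Dlx1as at -4.92, with Pou2af1 at -3.74. Between WT microglia and negative cells, 72 members were higher and 31 lower in microglia, 92% of the 112 in all, where 83.3% of all genes were called, 48.5% higher and 34.8% lower. Pou2f2 (+4.78), Hoxb4 (+2.18), Meis3 (+1.20), Pou5f1 (+0.83) and Hoxb5 (+0.78) led one side of that comparison, and Dlx1 (-6.92), Dlx6os1 (-6.78), Dlx2 (-6.01), Pou3f2 (-5.76) and Dlx1as (-5.44) the other.

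Some members had probe sets that were called in opposite directions in these WT comparisons, and no direction is given for the gene beyond the probe set used. Between astrocytes and microglia, Pax6 differed by +4.11 at its main probe set and -0.29 at another. In the same comparison Pax9 differed by -0.25 at its main probe set and by +1.37 and +0.85 at others, and Pbx4 by -0.24 and +0.70. Six3 had a further probe set at -0.26, although its main probe set was higher in astrocytes. Between astrocytes and negative cells, Six4 differed by -0.23 and +0.37. Between microglia and negative cells the split genes were Pax6 (+0.45 at another probe set), Pbx4 (+0.55 and -0.30), Pou3f1 (+0.37 at another probe set), Pou6f1 (-0.36 and +0.41), Six3 (-0.62, with +0.30 and +0.44 at others) and Six4 (-0.24 and +0.20).

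Between mutants and WT littermates, 30 of the 112 members were called in at least 1 of 12 comparisons, 20 of them higher and 10 lower, and 82 were never called. The 30 are 26.8% of the members, against 38.3% of all genes; by direction the shares were 17.9% against 22.1% higher and 8.93% against 19.1% lower. The 42 calls were 31 higher and 11 lower, and they lay in 7 comparisons; the other 5 held none. Most calls were in R6/2 astrocytes and R6/2 negative cells at 12 weeks. Onecut2, Nkx2-2, Irx2 and Pou3f3 were the 4 members called in both models, 3.57% of the 112 against 5.45% of all genes. Of these, only Onecut2 (astrocytes) and Irx2 (negative cells) were called in the same fraction in both models. In at least 2 fractions 7 members were called, 6.25% against 9.4%. Whether the groups of a gene overlapped is given below as description. It adds no support to a call from the same samples, and the share of all genes without overlap was not counted.

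**Figure D1:**
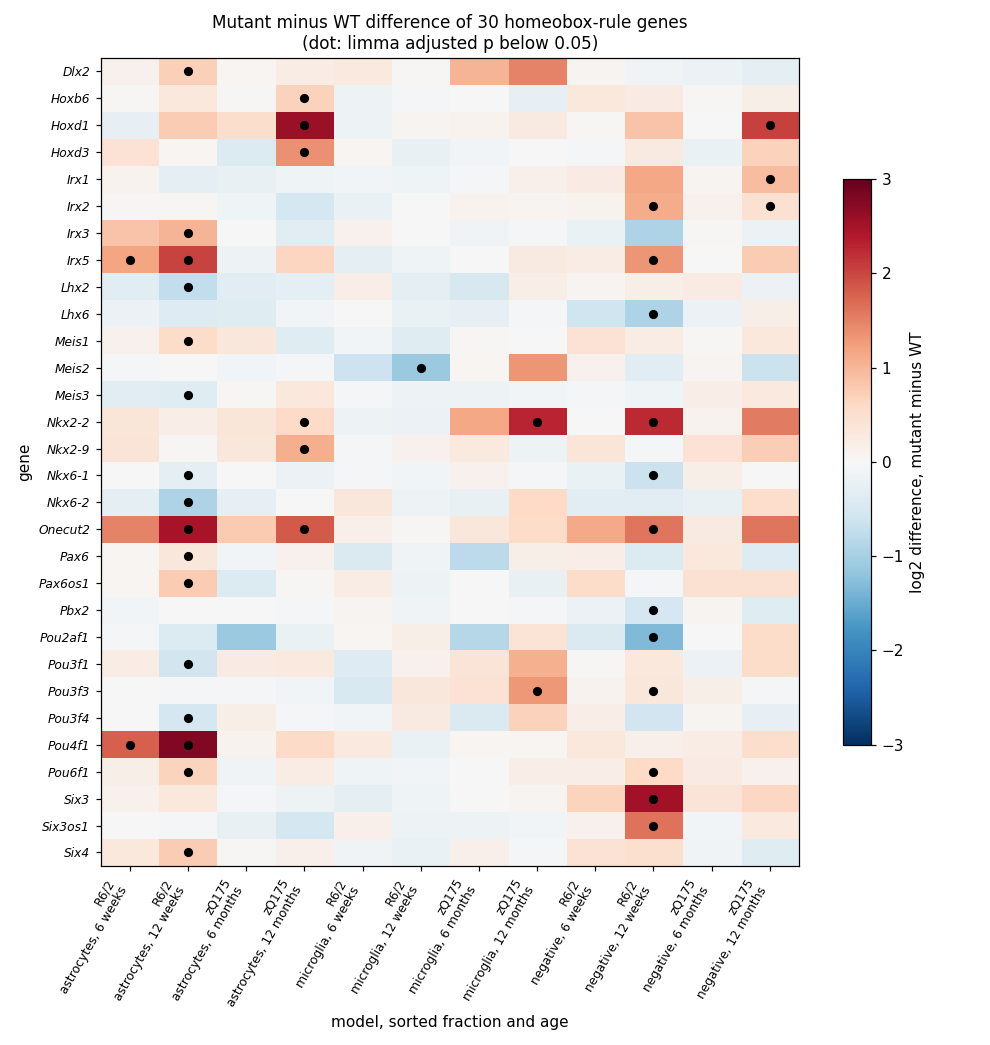
Heat map of the log2 difference, mutant minus WT, for the 30 called members (rows) in the 12 comparisons of model, sorted fraction and age (columns); red is higher and blue lower in the mutant, and a dot marks a limma adjusted p below 0.05. The darkest cells are Pou4f1 and Onecut2 in R6/2 astrocytes, Hoxd1 in zQ175 astrocytes and Six3 in R6/2 negative cells.

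In R6/2 astrocytes at 6 weeks, 2 members were higher and none lower, where 0.857% of all genes were called, 0.594% higher. Pou4f1, a POU factor of sensory neurons and retinal ganglion cells, had signals of 4.20, 4.44, 4.83, 5.01 and 5.19 in the WT samples and 6.10, 6.35, 6.37, 6.64 and 7.19 in R6/2. The groups did not overlap, and the difference was +1.80 ± 0.20 (SE; limma, Benjamini-Hochberg adjusted p = 7e-05). Another Pou4f1 probe set differed by +0.94 at this age and was not called (adjusted p = 0.327). Irx5, an Iroquois factor of neural and limb patterning, lay between 3.40 and 3.89 in WT and between 4.30 and 5.43 in R6/2, a difference of +1.18 ± 0.26 (adjusted p = 0.0338). Its groups did not overlap either, but the call was lost in 8 of the 10 fits that left out 1 sample, with differences of 1.03 to 1.31. Onecut2, a cut-homeodomain factor of liver, pancreas and developing neurons, differed by +1.49 ± 0.40 with an adjusted p of 0.102 at its main probe set, while another of its probe sets differed by +1.52 and was called (adjusted p = 0.0241).

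At 12 weeks, R6/2 astrocytes had 10 members higher and 6 lower. The 16 called members are 14.3% of the 112, where 19.4% of all genes were called, 9.57% higher and 9.81% lower; the members' shares were 8.93% and 5.36%. The median difference over the 112 members was -0.05 log2 units, against -0.03 over all genes. The largest changes were in 3 genes whose WT signals lay below the array medians of 6.26 to 6.65. Pou4f1 had signals of 4.19, 4.54, 4.85, 4.85 and 5.02 in WT, and the 6 R6/2 samples ran from 7.28 through a median of 7.50 to 7.69. Every R6/2 sample was above every WT sample, with a difference of +2.79 ± 0.19 (SE; limma adjusted p = 8.2e-09). Another Pou4f1 probe set differed by +2.23 (adjusted p = 0.000149).

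Irx5 was at 3.26, 3.31, 3.41, 3.54 and 4.75 in WT astrocytes at 12 weeks and at 5.24, 5.64 and 6.18 (lowest, median and highest) in R6/2. The groups were apart even with the high WT sample, replicate 14, and the difference was +2.03 ± 0.25 (SE; limma adjusted p = 1.2e-05). Its cluster neighbour Irx3 differed by +1.01 ± 0.33 (adjusted p = 0.038). The Irx3 groups overlapped, with WT from 4.31 to 6.49 and R6/2 from 5.94 to 6.82, and its call was lost in 7 of 11 fits that left out 1 sample, with differences of 0.77 to 1.31. Onecut2 was at 4.19, 4.98, 5.00, 5.68 and 5.84 in WT and at 6.90, 7.72 and 8.32 in R6/2. That made a difference of +2.48 ± 0.38 (adjusted p = 0.00011), again without overlap, and its other probe sets differed by +2.43 and +0.98, both called.

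**Figure D2:**
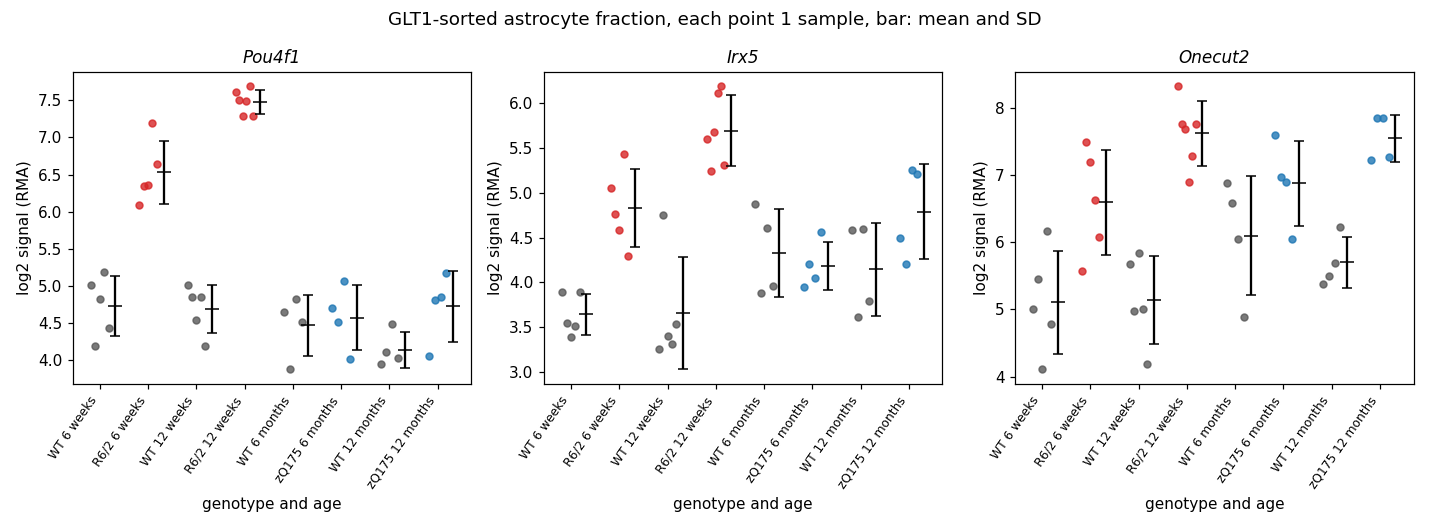
Log2 signal of Pou4f1, Irx5 and Onecut2 in each astrocyte sample by genotype and age, each point 1 pool, with the group mean and SD as a bar. The 12-week R6/2 samples lie above all 12-week WT samples in the 3 panels, and zQ175 samples rise above WT in the Onecut2 panel at 12 months.

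The other members that were higher in R6/2 astrocytes at 12 weeks had smaller differences. Pou6f1, a POU factor of the nervous system, was at 10.16, 10.25, 10.25, 10.33 and 10.38 in WT and 10.87, 10.92 and 11.03 in R6/2. Its groups were tight and apart, with a difference of +0.66 ± 0.07 (limma adjusted p = 9e-07), although another Pou6f1 probe set gave -0.19. Six4, a factor of muscle and sensory organs, rose by 0.77 ± 0.19 (adjusted p = 0.0077) from a WT range of 3.36 to 3.52 to an R6/2 range of 3.58 to 4.83. Its groups did not overlap, and its other probe sets gave +0.85, +1.16 and -0.08, the first 2 of them called. Dlx2, which specifies neurons of the ganglionic eminence, rose by 0.72 ± 0.16 (adjusted p = 0.0037) from 8.44 to 9.69 in WT to 9.51 to 10.37 in R6/2, with some overlap.

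Pax6, a regulator of the eye and of forebrain progenitors, lay between 8.80 and 9.33 in WT astrocytes and between 9.24 and 9.71 in R6/2 at 12 weeks, a difference of +0.35 ± 0.12 (limma adjusted p = 0.044). Of its other probe sets, 2 gave differences below 0 (-0.23 and -0.13), and the main call was lost in 8 of 11 fits that left out 1 sample (0.27 to 0.40). Pax6os1, a non-coding transcript from the opposite strand of the Pax6 locus, rose by 0.76 ± 0.21 (adjusted p = 0.015), from 3.23 to 4.07 in WT to 3.98 to 4.62 in R6/2. Meis1 differed by +0.55 ± 0.19 (adjusted p = 0.047), with overlapping ranges of 7.24 to 8.15 and 7.65 to 9.02. The Meis1 call was also lost in 8 of 11 such fits (0.38 to 0.68), and its other probe sets gave +0.33 and +0.24, neither called. When the fit was adjusted for the mean of the Y-linked genes, neither Pax6 (0.26, adjusted p = 0.207) nor Meis1 (0.62, adjusted p = 0.0655) was called.

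The 6 members that were lower in R6/2 astrocytes at 12 weeks came from the Nkx, Lhx, Pou and Meis families. Nkx6-2, a factor of oligodendrocytes and myelin formation, was at 11.15, 11.26, 11.50, 11.58 and 11.74 in WT and at 9.93, 10.60 and 10.93 in R6/2. The groups did not overlap, and the signal fell by 0.94 ± 0.18 (SE; limma adjusted p = 0.00078). Lhx2 fell by 0.73 ± 0.19 (adjusted p = 0.008), from 9.36 to 9.98 in WT to 8.52 to 9.32 in R6/2, also without overlap. Pou3f1, a POU factor best known from myelinating Schwann cells, fell by 0.55 ± 0.18 (adjusted p = 0.031), with WT from 9.79 to 10.42 and R6/2 from 9.13 to 9.77. Its call was lost in 4 of 11 fits that left out 1 sample (-0.64 to -0.46) and when the Y-linked mean was adjusted for (-0.51, adjusted p = 0.107).

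Pou3f4, a relative of Pou3f2 in the developing brain and ear, fell by 0.53 ± 0.16 (limma adjusted p = 0.02) in R6/2 astrocytes at 12 weeks, with WT from 8.91 to 9.40 and R6/2 from 8.09 to 9.06. The Pou3f4 call was lost without R6/2 replicate 11 or WT replicate 16 (all such fits, -0.64 to -0.44). Nkx6-1, which specifies motor neurons and beta cells, fell by 0.29 ± 0.08 (adjusted p = 0.013), with WT from 5.14 to 5.53 and R6/2 from 4.78 to 5.20. Meis3 fell by 0.36 ± 0.12 (adjusted p = 0.034), with overlapping ranges of 7.30 to 7.84 and 6.87 to 7.45, and lost its call in 5 of 11 fits (-0.41 to -0.28). Beside these falls, 7 of 13 oligodendrocyte markers were lower (median -0.27), among them Fa2h (-0.88), Ugt8a (-0.65) and Aspa (-0.73), and 3 of 17 astrocyte markers were lower (median -0.14), namely Sox9 (-0.44), Aldh1l1 (-0.37) and Gjb2 (-0.35). None of 19 endothelial and mural markers was called (median -0.74), with a mean over that list of 8.65 to 9.97 in WT and 7.48 to 10.34 in R6/2. Of 9 precursor markers of the oligodendrocyte line, Pdgfra (+1.78) and Tnr (+1.52) rose and Cspg4 (-0.64) fell. Of 10 pan-neuronal markers Tubb3 (+1.09) rose, and of 12 markers of young neurons and the subventricular zone 2 rose and 2 fell, with Dcx at +2.46, Nrep at -0.75 and Gad1 at -1.15. Of 16 medium spiny neuron markers Foxp1 (+0.42) rose and 3 fell, among them Ppp1r1b (-1.29) and Drd2 (-0.82). Of 13 ependymal and choroid plexus markers 1 rose and 3 fell, with Ccdc153 at -1.45 and Aqp1 at -0.92. Of 12 fibroblast and meningeal markers 3 rose and 3 fell, with Igf2 at +1.68, and of 17 microglia markers Gpr34 (+0.93) rose. The young neuron list mean was 6.33 to 6.78 in WT and 6.48 to 7.17 in R6/2. The part of these markers in the members' changes was not tested beyond the endothelial and mural list. With that list's mean as a covariate 17 members were called, 10 higher and 7 lower, against 16 without it, although the Meis1 difference of 0.44 was no longer called (adjusted p = 0.0996). Over all genes 3509 were called with that covariate, against 3527 without it.

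In zQ175 astrocytes at 6 months no member was called by limma, where 0.231% of all genes were called; 4 members had an unadjusted p below 0.05, and eBayes with trend and robust settings also called none. At 12 months, 6 members were higher and none lower, 5.36% of the 112, where 3.58% of all genes were called, 2.82% higher. The median over the members was +0.01, as over all genes. The called genes were Hoxd1, Hoxd3, Hoxb6, Nkx2-9, Nkx2-2 and Onecut2.

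Hoxd1, the most 3′ gene of the Hoxd cluster, was at 3.29, 3.44, 3.72 and 4.66 in WT astrocytes at 12 months and at 5.98, 6.18, 6.34 and 6.95 in zQ175. All zQ175 samples were above all WT samples, with a difference of +2.58 ± 0.44 (SE; limma adjusted p = 0.0039). At 6 months the groups overlapped, with WT at 4.16, 4.83, 5.36 and 6.46 and zQ175 at 4.81, 5.87, 5.90 and 6.28. WT thus ran from 4.16 to 6.46 at 6 months and from 3.29 to 4.66 at 12 months. For zQ175 the ranges were 4.81 to 6.28 and 5.98 to 6.95. Both genotypes overlapped between the ages, and a change with age within a genotype was not tested. In R6/2 astrocytes at 12 weeks Hoxd1 differed by +0.76 ± 0.27 (adjusted p = 0.0566), from WT at 4.03 to 5.47 and R6/2 at 5.14 to 5.64.

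Hoxd3, its cluster neighbour, was at 3.59, 4.02, 4.28 and 4.41 in WT and at 5.06, 5.38, 5.55 and 5.81 in zQ175 astrocytes at 12 months, a difference of +1.38 ± 0.24 (limma adjusted p = 0.005). The groups did not overlap at 12 months, but at 6 months they did, with WT from 4.35 to 5.29 and zQ175 from 4.02 to 4.91 (difference -0.41, adjusted p = 0.841). Hoxb6, a trunk gene of the Hoxb cluster, was near the bottom of the signal range, at 2.17, 2.27, 2.32 and 2.38 in WT and 2.62, 2.73, 3.15 and 3.39 in zQ175. That difference of +0.69 ± 0.15 (adjusted p = 0.017) lost its call without zQ175 replicate 33 or WT replicate 34 (all such fits, 0.55 to 0.80).

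Nkx2-9, a gene of the ventral neural tube, was at 6.42, 6.64, 6.96 and 6.97 in WT and 7.71, 7.74, 7.92 and 7.97 in zQ175 astrocytes at 12 months. The groups were apart by more than their own ranges, with a difference of +1.09 ± 0.15 (limma adjusted p = 0.00082). Nkx2-2, which directs oligodendrocyte precursors and ventral neurons, was already high in WT, at 10.30, 10.31, 10.54 and 10.57, and reached 10.92, 10.98, 10.98 and 11.10 in zQ175. Its difference was +0.57 ± 0.08 (adjusted p = 0.00092), after +0.36 ± 0.08 at 6 months (adjusted p = 0.097).

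Onecut2 was at 5.38, 5.50, 5.68 and 6.23 in WT astrocytes at 12 months and at 7.22, 7.27, 7.85 and 7.85 in zQ175, without overlap, a difference of +1.85 ± 0.38 (limma adjusted p = 0.015). Its call was lost in 3 of 8 fits that left out 1 sample (zQ175 replicates 31 and 32 and WT replicate 34), with differences of 1.74 to 2.02. Other Onecut2 probe sets differed by +1.64 (adjusted p = 0.0186) and +0.66 (adjusted p = 0.0915). Pou4f1 differed by +0.58 ± 0.26 (adjusted p = 0.285) and Irx5 by +0.64 ± 0.30 (adjusted p = 0.309) in the same samples. Beside these results, 1 of 13 oligodendrocyte markers and none of 17 astrocyte, 17 microglia, 9 oligodendrocyte precursor or 19 endothelial and mural markers were called; the median over the precursor list was +0.32, and its summed level as a list mean was 8.10 to 8.40 in WT and 8.21 to 8.48 in zQ175.

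**Figure D3:**
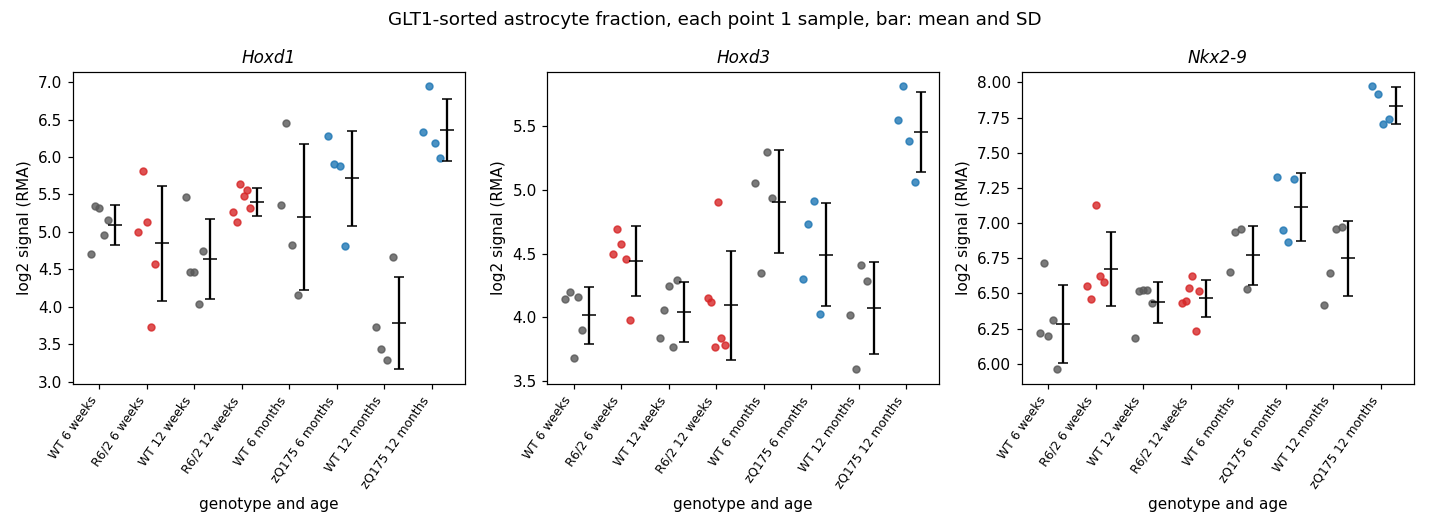
Log2 signal of Hoxd1, Hoxd3 and Nkx2-9 in each astrocyte sample by genotype and age, each point 1 pool, with the group mean and SD as a bar. At 12 months the 4 zQ175 samples lie above the 4 WT samples in the 3 panels; at 6 months the Hoxd1 and Hoxd3 groups overlap.

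The Hox clusters did not rise together. Of their 36 genes, 3 were called in any of the 12 comparisons: Hoxd1, Hoxd3 and Hoxb6 in zQ175 astrocytes at 12 months, and Hoxd1 again in zQ175 negative cells at that age. Of all genes, 38.3% were called in any of the 12, with 3.58% called in those astrocytes, 2.82% higher, and 4.19% in those negative cells. The median difference over the 36 genes lay between -0.16 and +0.07 in the 12 comparisons. In R6/2 astrocytes at 12 weeks it was -0.07, with single genes from -0.38 to +0.76, and limma called none of the 36, where 19.4% of all genes were called, while 5 had an unadjusted p below 0.05. In zQ175 astrocytes at 12 months it was +0.07, with genes from -0.23 to +2.58. In R6/2 negative cells at 12 weeks the median was -0.03, the highest gene was Hoxd1 at +0.85 ± 0.36 (adjusted p = 0.113), limma called none, where 20.1% of all genes were called, and 4 had an unadjusted p below 0.05.

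**Figure D4:**
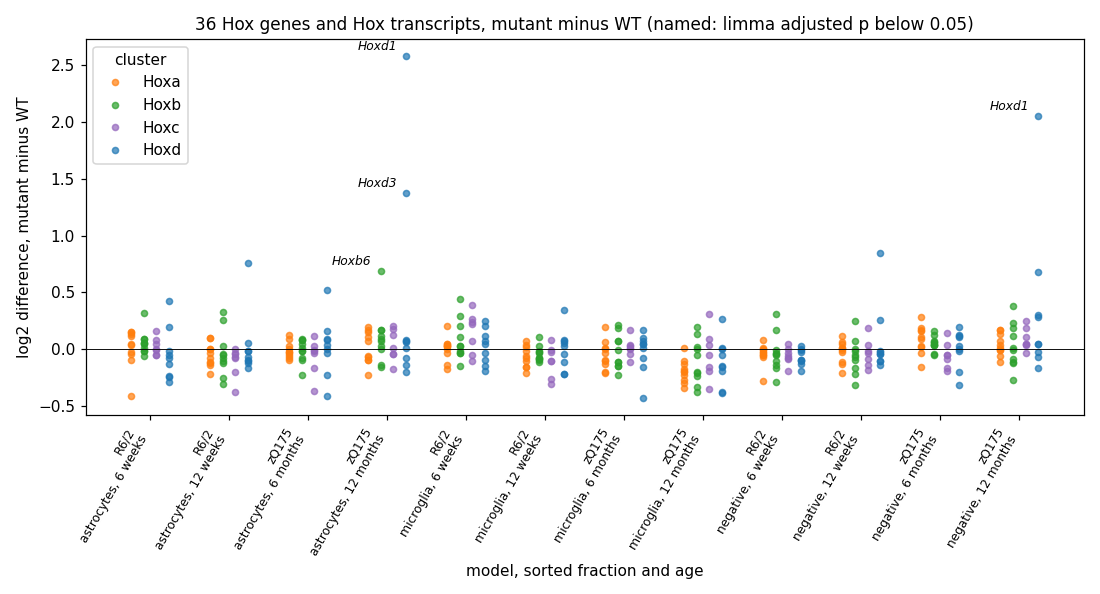
Log2 difference, mutant minus WT, of 36 genes of the 4 Hox clusters (colours) in the 12 comparisons; the named points have a limma adjusted p below 0.05. Nearly all points lie close to 0, and Hoxd1 stands out in zQ175 astrocytes and negative cells at 12 months.

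Microglia held few changes in these families. At 6 weeks in R6/2 and at 6 months in zQ175, limma called no member, where 0.28% and 0.0055% of all genes were called; 3 members and 1 member had an unadjusted p below 0.05, and eBayes with trend and robust settings called none either. At 12 weeks in R6/2, 1 member was lower and none higher, where 3.33% of all genes were called, 1.74% lower. That gene was Meis2, a partner of Hox and Dlx proteins, at 5.15, 5.43, 5.50, 5.57 and 6.52 in WT and at 3.96, 4.65 and 4.90 in R6/2. The groups did not overlap, and the signal fell by 1.11 ± 0.24 (adjusted p = 0.011). Of 3 other Meis2 probe sets, none called, one gave -0.55 and the others +0.28 and +0.15, and adjusted for the Y-linked mean the difference was -0.92 (adjusted p = 0.0795). In the same samples 2 of 16 medium spiny neuron markers were lower and none of 17 microglia markers was called.

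In zQ175 microglia at 12 months, 2 members were higher, where 2.04% of all genes were called, 1.84% higher. Nkx2-2 was at 4.54, 6.20, 6.31 and 6.47 in WT and 8.0, 8.08, 8.28 and 8.32 in zQ175, a difference of +2.29 ± 0.44 (limma adjusted p = 0.017). Pou3f3, a POU factor of neural precursors, was at 8.12, 9.06, 9.42 and 9.43 in WT and 9.98, 10.06, 10.24 and 10.92 in zQ175, a difference of +1.29 ± 0.27 (adjusted p = 0.024). Neither pair of groups overlapped. The other Pou3f3 probe set gave -0.18 (adjusted p = 0.698), and the mean of both gave 0.56 (adjusted p = 0.0565). All 13 oligodendrocyte markers were above 0 in this comparison (median +1.09, 3 called), with a list mean of 8.73 to 10.45 in WT and 10.73 to 10.97 in zQ175. With that mean as a covariate the difference was 1.08 for Nkx2-2 (adjusted p = 0.595) and 0.55 for Pou3f3 (adjusted p = 0.655), and with the endothelial and mural mean it was 2.12 (adjusted p = 0.263) and 0.89 (adjusted p = 0.455). Over all genes the calls fell from 372 to 0 with the oligodendrocyte mean and to 18 with the endothelial and mural mean. The latter ran from 6.80 to 7.05 in WT and from 7.37 to 9.69 in zQ175. Neither list mean overlapped between the genotypes, so these fits cannot separate either of them from genotype. Without zQ175 replicate 31 the Nkx2-2 call was lost, and without replicate 31 or 33 that of Pou3f3, with differences of 1.84 to 2.48 and 1.0 to 1.43 over all such fits. In replicate 31 Dlx2 was at 11.36 and Meis2 at 9.92; Dlx2 was at 6.15 to 7.34 in the other 3 zQ175 samples. The young neuron and subventricular zone list mean was 6.46 to 6.74 in WT and 6.56 to 9.98 in zQ175. For the oligodendrocyte precursor list it was 6.03 to 6.32 and 6.46 to 8.04. The part of these 2 lists in the results was not tested.

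By its markers, the negative fraction held endothelial and mural, oligodendrocyte, young neuron, fibroblast and oligodendrocyte precursor transcripts. In 12-week WT samples these list means averaged 12.25, 11.86, 10.825, 10.29 and 9.55. The astrocyte list averaged 8.63 and the medium spiny neuron list 7.52. At 6 weeks in R6/2 and at 6 months in zQ175, limma called no member, where 0.264% and 0% of all genes were called; 8 and 4 members had an unadjusted p below 0.05, and eBayes with trend and robust settings called none either. At 12 weeks in R6/2, 8 members were higher and 4 lower. Those 12 are 10.7% of the members, where 20.1% of all genes were called, 11.8% higher and 8.35% lower; the members' shares were 7.14% and 3.57%. Six3 was at 4.84, 5.30, 5.71, 5.71 and 5.92 in WT and at 7.20, 8.06 and 8.47 in R6/2. The groups were far apart, with a difference of +2.51 ± 0.21 (limma adjusted p = 4.6e-08). Of its other probe sets, one differed by +1.65 (adjusted p = 4.76e-07) and one by -0.0038.

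Nkx2-2 was at 7.58, 7.82, 7.88, 7.95 and 8.96 in 12-week WT negative cells and at 9.78, 10.28 and 10.81 in R6/2, a difference of +2.23 ± 0.22 (limma adjusted p = 4.8e-07). At 6 weeks Nkx2-2 had been at 9.90 to 10.34 in WT and 9.71 to 10.59 in R6/2, so the 12-week WT samples, not the R6/2 samples, were the ones that lay away from the 6-week levels. Irx5 was at 2.88 to 3.61 in WT and 4.13 to 5.56 in R6/2 (+1.33 ± 0.21, adjusted p = 0.00014). Irx2, an Iroquois gene of another cluster, was at 4.83 to 5.16 and 5.55 to 6.59 (+1.12 ± 0.19, adjusted p = 0.00018). The WT and R6/2 ranges of Nkx2-2, Irx5 and Irx2 lay apart.

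Six3os1 rose by 1.64 ± 0.30 (limma adjusted p = 0.00043) in 12-week R6/2 negative cells, Pou6f1 by 0.59 ± 0.15 (adjusted p = 0.0062), Pou3f3 by 0.34 ± 0.09 (adjusted p = 0.0094) and Onecut2 by 1.60 ± 0.49 (adjusted p = 0.023), each with some overlap between groups. The Onecut2 call was lost in 4 of 11 fits that left out 1 sample (1.11 to 2.01). Another Pou6f1 probe set gave -0.06, and other Onecut2 probe sets gave +1.70 (adjusted p = 0.00723) and +0.41 (adjusted p = 0.399). The other Pou3f3 probe set gave +0.30 (adjusted p = 0.227). Among the lower genes, Pbx2, a Hox partner, fell by 0.50 ± 0.10 (adjusted p = 0.001) from 10.53 to 11.14 in WT to 10.06 to 10.48 in R6/2, without overlap; other Pbx2 probe sets gave -0.57 (adjusted p = 0.0477) and -0.15 (adjusted p = 0.37). Lhx6, which specifies interneurons of the medial ganglionic eminence, fell by 0.92 ± 0.22 (adjusted p = 0.0057), but its other probe set gave -0.04 (adjusted p = 0.875). Nkx6-1 fell by 0.64 ± 0.17 (adjusted p = 0.012). Pou2af1 fell by 1.33 ± 0.37 (adjusted p = 0.014). The groups of these last 3 genes overlapped, and Lhx6 was not called when the Y-linked mean was adjusted for (-0.72, adjusted p = 0.0526).

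Markers of other cells moved in the same samples. Of 17 astrocyte markers, 15 were higher in R6/2 negative cells at 12 weeks (median +1.99), with a list mean of 8.43 to 8.95 in WT and 9.59 to 10.80 in R6/2. Of 9 oligodendrocyte precursor markers 6 were higher and 1 lower, and of 12 fibroblast and meningeal markers 11 were lower (median -1.14); 5 of 19 endothelial and mural markers were lower. With the astrocyte marker mean as a covariate, limma called none of the 12 members, and over all genes the calls fell from 3661 to 64. That mean did not overlap between the genotypes at 12 weeks, so this fit cannot separate it from genotype. The difference was smaller for Six3 (1.73, adjusted p = 0.0904), Nkx2-2 (1.38, adjusted p = 0.222), Irx5 (0.72), Onecut2 (0.61), Irx2 (0.24) and Pou3f3 (0.10), and it turned to -0.33 for Six3os1. It was as large or nearly so for Lhx6 (-0.88) and larger for Pou6f1 (1.004), Pou2af1 (-1.81), Nkx6-1 (-0.88) and Pbx2 (-0.57). The errors of all 12 were wider than without the covariate, for instance 0.44 for Six3 and 1.10 for Onecut2. With the endothelial and mural mean, 7 members were called, and over all genes 2163. That mean ran from 12.05 to 12.4 in WT and from 11.28 to 11.99 in R6/2, so the same limit applies.

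**Figure D5:**
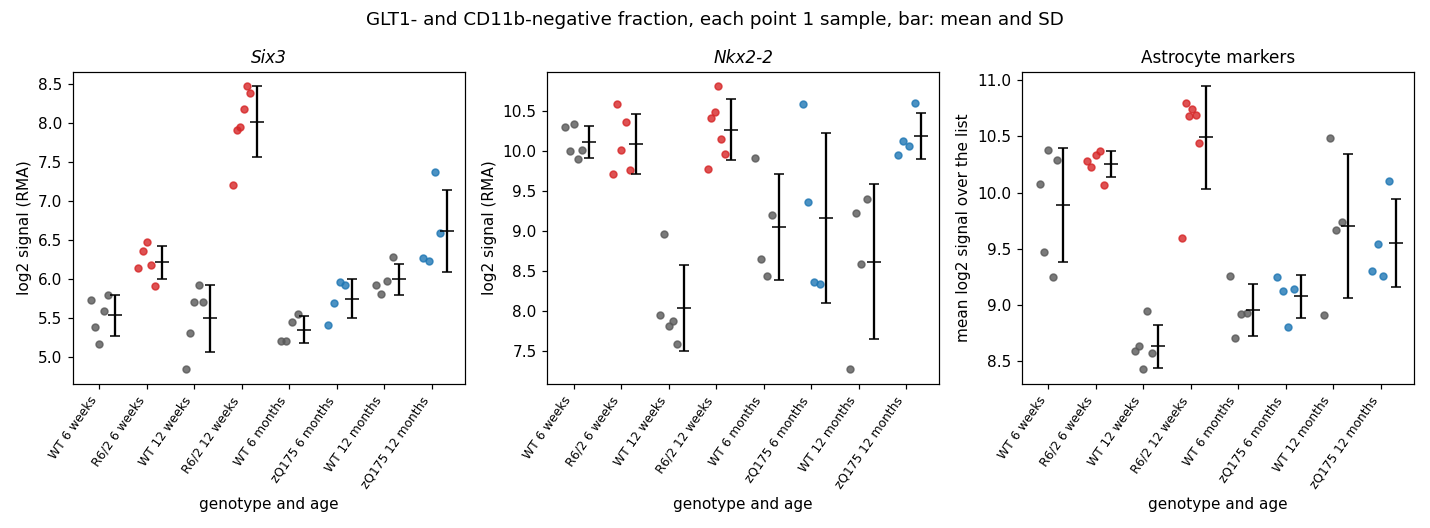
Log2 signal of Six3 and Nkx2-2 and the mean over the astrocyte marker list in each negative-fraction sample, by genotype and age, each point 1 pool, with the group mean and SD as a bar. The 12-week R6/2 samples lie above the 12-week WT samples in the 3 panels, and the 12-week WT samples lie below the 6-week WT samples for Nkx2-2 and the astrocyte markers.

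In zQ175 negative cells at 12 months, 3 members were higher, 2.68% of the 112, where 4.19% of all genes were called, 2.45% higher. Hoxd1 was at 2.45, 2.54, 3.01 and 3.91 in WT and 4.21, 4.59, 5.16 and 6.16 in zQ175. The groups did not overlap and differed by +2.05 ± 0.39 (limma adjusted p = 0.014), but the call was lost without WT replicate 34 or 35 (all such fits, 1.68 to 2.36). Irx1 was at 3.75, 4.14, 4.30 and 4.31 in WT and 4.71, 4.87, 5.13 and 5.46 in zQ175 (+0.92 ± 0.17, adjusted p = 0.011). Irx2 lay at 5.35 to 5.56 and 5.61 to 6.08 (+0.46 ± 0.11, adjusted p = 0.038), and its call was lost in 6 of 8 fits that left out 1 sample (0.40 to 0.56), with trend and robust settings (adjusted p = 0.0694) and after quantile normalization (0.26, adjusted p = 0.188). In these samples the microglia markers had a median difference of +2.00, 2 of 17 called. Their list mean was 5.32 to 6.55 in WT. In zQ175 it was 10.47 in replicate 31 and 6.54 to 6.95 in the others. Of 9 oligodendrocyte precursor markers 2 were higher, with a list mean of 8.85 to 10.15 in WT and 10.28 to 10.44 in zQ175. The part of these 2 marker lists in these results was not tested.

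Effects were then compared with each other, over 13 contrasts of a difference. In astrocytes the mutant effect of R6/2 was larger at 12 than at 6 weeks for Pou6f1 only (+0.48 ± 0.10, limma adjusted p = 0.0293), 1 of 112 members, where 0.632% of all genes were called, 0.429% in this direction. For Pou4f1 the increase of +0.99 ± 0.28 had an adjusted p of 0.12. The other Pou6f1 probe set gave -0.24, the mean of both gave 0.12 (adjusted p = 0.775), and adjusted for the Y-linked mean the value was 0.44 (adjusted p = 0.0667). The Pou6f1 call was lost in 3 of 21 fits that left out 1 sample (R6/2 replicate 10 and WT replicate 4 at 6 weeks, WT replicate 20 at 12 weeks). In negative cells 3 members had a larger R6/2 effect at 12 weeks, where 3.2% of all genes were called, 2.88% in this direction: Nkx2-2 (+2.25 ± 0.32, adjusted p = 0.000386), Six3 (+1.84 ± 0.30, adjusted p = 0.00127) and Irx2 (+1.003 ± 0.27, adjusted p = 0.0421). Irx2 lost its call in 14 of 21 fits that left out 1 sample (0.89 to 1.11), with trend and robust settings (adjusted p = 0.0524), after quantile normalization (0.83, adjusted p = 0.137) and with the Y-linked mean (0.96, adjusted p = 0.0959). Other Six3 probe sets gave +1.30 (adjusted p = 0.00292) and +0.03. With the astrocyte marker mean as a covariate none of the 3 was called by limma, and over all genes 0 were called. That mean did not overlap between the genotypes at 12 weeks, so the limit given above holds here too. Limma called no member in the age difference of R6/2 microglia or in any of the 3 zQ175 fractions, where 0.165%, 0.0165% (astrocytes), 0% (microglia) and 0.0605% (negative cells) of all genes were called; 4, 5, 6 and 4 members had an unadjusted p below 0.05.

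Between the models, the 12-week R6/2 effect and the 12-month zQ175 effect in astrocytes differed for 8 members, 7.14% of them, where 6.01% of all genes were called, 2.27% with the higher effect in R6/2 and 3.74% with the higher effect in zQ175. Pou4f1 had the larger effect in R6/2 (difference of effects +2.21 ± 0.33, limma adjusted p = 0.00011), as had Irx5 (+1.39 ± 0.40, adjusted p = 0.0334) and Pou6f1 (+0.44 ± 0.12, adjusted p = 0.0185). Hoxd1 (-1.82 ± 0.51, adjusted p = 0.0293), Hoxd3 (-1.32 ± 0.30, adjusted p = 0.00685) and Nkx2-9 (-1.06 ± 0.20, adjusted p = 0.00107) had the larger effect in zQ175. Onecut2, called in both models, was not among the 8. Leaving out 1 sample gave 4 to 9 members, with the call lost in 10 of 19 fits for Irx5 (1.19 to 1.66), 6 for Meis3 (-0.74 to -0.59), 5 for Hoxd1 (-2.12 to -1.61) and 1 for Pou6f1 (without 12-month WT replicate 34). Adjusted for the Y-linked mean, Irx5 (1.24, adjusted p = 0.0938), Hoxd1 (-1.53, adjusted p = 0.101) and Pou6f1 (0.41, adjusted p = 0.0519) were not called, and the other Pou6f1 probe set gave -0.23. In negative cells 5 members differed, where 7.73% of all genes were called, 4.4% and 3.34% by direction: Six3 (+1.90 ± 0.31, adjusted p = 0.000332), Six3os1 (+1.35), Lhx8 (+1.28), Pou2af1 (-1.89) and Lhx6 (-1.10). Lhx8, which specifies cholinergic neurons, was itself called in neither model. Leaving out 1 sample gave 1 to 7 members, with the call lost in 12 of 19 fits for Lhx6 (-1.24 to -0.96), 11 for Six3os1 (1.20 to 1.54), 10 for Pou2af1 (-2.20 to -1.62) and 8 for Lhx8 (1.05 to 1.54). Six3 was the 1 member called with the Y-linked mean or with the endothelial and mural mean as a covariate. Over all genes 957 and 1017 were called in those fits. Other Six3 probe sets gave +1.45 (adjusted p = 0.000273) and +0.11 (adjusted p = 0.708), and the other Lhx6 probe set gave -0.02. In microglia limma called no member, where 1.18% of all genes were called. Of the members 11 had an unadjusted p below 0.05. With trend and robust settings eBayes called 2 members, where 241 of 18194 genes were called. Age, strain and model cannot be told apart in these contrasts.

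Between fractions, the R6/2 effect at 12 weeks was larger in astrocytes than in microglia for 5 members, where 4.05% of all genes were called, 2.36% in this direction. They were Pou4f1 (+2.98 ± 0.36, limma adjusted p = 2.81e-06), Irx5 (+2.16 ± 0.37, adjusted p = 0.000374), Pou6f1 (+0.75 ± 0.15, adjusted p = 0.00254), Onecut2 (+2.45 ± 0.62, adjusted p = 0.0186) and Meis2 (+1.11 ± 0.28, adjusted p = 0.02), the last through its fall in microglia. Other probe sets gave +2.21 (adjusted p = 0.0169) for Pou4f1, +2.51 and +1.17 (adjusted p = 0.00194 and 0.157) for Onecut2, -0.09 for Pou6f1, and +0.72, +0.32 and -0.16, none called, for Meis2. Against negative cells 7 members differed, where 10.1% of all genes were called, 3.53% with the higher effect in astrocytes and 6.56% with the higher effect in negative cells. Pou4f1 (+2.63 ± 0.36, adjusted p = 4.94e-06), Irx3 (+1.94) and Pbx2 (+0.49) had the higher effect in astrocytes. Six3 (-2.19 ± 0.27, adjusted p = 1.37e-06), Nkx2-2 (-2.03), Six3os1 (-1.66) and Irx2 (-1.08) had the higher effect in negative cells. Another Pou4f1 probe set gave +1.34 (adjusted p = 0.134), other Pbx2 probe sets gave +0.02 and +0.41, neither called, and other Six3 probe sets gave -1.48 (adjusted p = 8.18e-05) and -0.04. Pbx2 lost its call without negative WT replicate 12 and Irx2 without astrocyte WT replicate 14, with values of 0.41 to 0.56 and -1.19 to -0.88 over all such fits, and Irx2 also after quantile normalization (-0.84, adjusted p = 0.136). The zQ175 effect at 12 months differed between astrocytes and microglia for 3 members, where 0.66% of all genes were called, 0.242% and 0.418% by direction: Nkx2-9 (+1.24), Hoxb6 (+0.92) and Pou3f3 (-1.38). Leaving out 1 sample gave 1 to 3 members, with the call lost in 7 of 16 fits for Hoxb6 (0.79 to 1.04) and in 10 for Pou3f3 (-1.52 to -1.08). The other Pou3f3 probe set gave +0.25. Between zQ175 astrocytes and negative cells limma called no member, where 0.846% of all genes were called; 13 had an unadjusted p below 0.05.

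The genes that keep developmental loci silent or open were measured in the same astrocytes. In R6/2 at 12 weeks, 1 of 11 genes of Polycomb repressive complex PRC2 was higher and none lower (Phf1 +0.29; list median +0.16, all genes -0.03). Of 19 PRC1 genes 3 were higher and 1 lower, with Pcgf2, which encodes a Polycomb RING finger subunit, at +1.40 ± 0.13 (limma adjusted p = 2.6e-07), Bmi1 at +0.49 and Ring1 at -0.46 (list median +0.05). Of 13 Trithorax and H3K27 demethylase genes 3 were higher and none lower: Kmt2d (+0.35), Kmt2b (+0.33) and Kmt2c (+0.19), with a median of +0.12. In zQ175 astrocytes at 12 months no PRC2 or Trithorax gene was called by limma and 1 PRC1 gene was higher.

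Related developmental genes outside the naming rule were counted in the same way. Of 64 other homeobox genes 4 were higher and 2 lower in R6/2 astrocytes at 12 weeks (median -0.08), with Tgif1 at +1.05, Satb1 at +0.52 and Tgif2 at +0.69. Of 68 other developmental transcription factor genes 5 were higher and 4 lower (median -0.12), with Foxf1, a factor of visceral mesoderm, at +2.61 ± 0.35 (limma adjusted p = 2.92e-05), Zic2 at +1.59 and Ebf3 at +1.22. In zQ175 astrocytes at 12 months, 3 other homeobox genes were higher and 1 lower, and 1 of the other developmental genes was higher. The share called over all genes was 19.4% in the R6/2 comparison and 3.58% in the zQ175 comparison.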

How the data were processed

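The authors deposited log2 expression values, normalised by RMA with the affy package, per the submitters' processing notes, which also name limma (versions and genome build: not given in the sources used here). Of 45101 probe sets in the files, 34958 carry 1 gene symbol, 932 several and 9211 none; values run from 1.5 to 14.26 and array medians from 6.26 to 6.65, and no 2 arrays were identical. The number of arrays limits the precision.

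Group means were fitted with limma 3.58.1 in R 4.3.3, separately for each model and fraction for mutant against WT, with Benjamini-Hochberg adjustment over all 18194 genes and a threshold of 0.05, without a filter on dim genes. The code was tested on simulated data. Values were named by rule: members called in any mutant comparison, the 5 with the smallest adjusted p per contrast of effects, the 5 largest in each direction between WT fractions, members with opposing probe sets, and the 3 with the smallest adjusted p of each other list. Onecut2 and Irx5 at 6 weeks, Hoxd1 in R6/2 and the R6/2-only genes in zQ175 are given for comparison. Marker and regulator lists and the members were chosen with earlier results of these data known. The covariate fits on endothelial, astrocyte and oligodendrocyte marker means were added after seeing the data. Replicate numbers were not used as a block in the main fits.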

Additional observations from a re-analysis of the deposited data

Results flagged for a closer look

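Among 84 groups of the named members, 7 held a sample far from the rest of its group; about 1 in 20 groups would by chance. Irx5 in 12-week WT astrocytes was at 4.75 in replicate 14, with the others at 3.26 to 3.54. Nkx6-1 in 12-week R6/2 astrocytes was at 4.78 in replicate 15, with the others at 5.05 to 5.20. Pou3f1 in those astrocytes was at 9.13 in replicate 19, with the others at 9.58 to 9.77. Pou3f4 in 12-week WT astrocytes was at 9.40 in replicate 16, with the others at 8.91 to 9.02. Nkx2-2 in 12-month WT microglia was at 4.54 in replicate 34, with the others at 6.20 to 6.47. In the negative fraction at 12 weeks, Irx5 was at 5.56 in R6/2 replicate 17, with the others at 4.13 to 4.58, and Nkx2-2 was at 8.96 in WT replicate 14, with the others at 7.58 to 7.95.

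In 13 tested contrasts of effects there were 32 differences with a limma adjusted p below 0.05. The R6/2 effect changed between 6 and 12 weeks for Pou6f1 in astrocytes (+0.48) and for Nkx2-2 (+2.25), Six3 (+1.84) and Irx2 (+1.003) in negative cells. It differed from the zQ175 effect in astrocytes for Pou4f1 (+2.21), Irx5 (+1.39), Pou6f1 (+0.44), Hoxd1 (-1.82), Hoxd3 (-1.32), Nkx2-9 (-1.06), Nkx6-2 (-0.92) and Meis3 (-0.67), and in negative cells for Six3 (+1.90), Six3os1 (+1.35), Lhx8 (+1.28), Lhx6 (-1.10) and Pou2af1 (-1.89). Within R6/2 it differed between astrocytes and microglia for Pou4f1 (+2.98), Onecut2 (+2.45), Irx5 (+2.16), Meis2 (+1.11) and Pou6f1 (+0.75). Between astrocytes and negative cells it differed for Pou4f1 (+2.63), Irx3 (+1.94), Pbx2 (+0.49), Six3 (-2.19), Nkx2-2 (-2.03), Six3os1 (-1.66) and Irx2 (-1.08). Within zQ175 the effect differed between astrocytes and microglia for Nkx2-9 (+1.24), Hoxb6 (+0.92) and Pou3f3 (-1.38).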

How the results depend on the processing

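Of 173 recounts of called members under another setting, 148 stayed within 1.5 times the count reported; the other 25 were as follows, and the cause was not tested beyond what each setting does. Of 475 refits of named values, 376 kept direction and call, 84 kept direction but lost the call, and 15 turned sign.

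A filter kept genes at or above the 40th percentile of all probe sets, which removes most members. Brackets give all genes called. Member calls were then 1 in R6/2 astrocytes at 6 weeks (146 of 12209). In zQ175 at 12 months they were 3 in astrocytes (731 of 12380) and 0 in negative cells (875 of 12628). Between WT fractions they were 26 for astrocytes and microglia (10680 of 12477), 27 for astrocytes and negative cells (9466) and 30 for microglia and negative cells (10449). For the difference of models they were 5 in astrocytes (1244 of 12270), 2 in microglia (232 of 12108) and 2 in negative cells (1347 of 12541). For R6/2 astrocytes against microglia they were 3 (624 of 12461). With the mean of a gene's probe sets, member calls were 0 for the R6/2 age difference in astrocytes (101 of 18194 genes, as below). They were 0 in R6/2 microglia at 12 weeks (597) and 1 in zQ175 microglia at 12 months (355). For R6/2 astrocytes against microglia they were 3 (677). Adjusted for the Y-linked mean they were 0 for the R6/2 age difference in astrocytes (34) and 0 in R6/2 microglia at 12 weeks (371). For the difference of models in negative cells that adjustment gave 1 (957). With eBayes trend and robust settings, 2 members were called for the difference of models in microglia (241). With the endothelial and mural mean as a covariate the member calls were 0 in zQ175 microglia at 12 months (18). They were 7 in R6/2 negative cells at 12 weeks (2163) and 1 for the difference of models in negative cells (1017). With the oligodendrocyte mean they were 0 in zQ175 microglia at 12 months (0). With the astrocyte marker mean they were 0 in R6/2 negative cells at 12 weeks (64) and 0 for their age difference (0). In zQ175 negative cells at 12 months that mean gave 5 (733). In zQ175 microglia at 12 months and R6/2 negative cells at 12 weeks, no marker mean used as a covariate overlapped between the genotypes. Those fits cannot separate the marker mean from genotype.

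The sign turned for Six3os1 in R6/2 negative cells with the astrocyte marker mean (-0.33). At other probe sets it turned for Pax6 (-0.23 and -0.13) and Six4 (-0.085) in R6/2 astrocytes and for Meis2 in R6/2 microglia (+0.28 and +0.15) and in its contrast of astrocytes with microglia (-0.16). It turned for Pou6f1 in R6/2 astrocytes (-0.19), their age difference (-0.24), negative cells (-0.064), the difference of models (-0.23) and the contrast of astrocytes with microglia (-0.089), for Pou3f3 in zQ175 microglia (-0.18) and the zQ175 contrast of astrocytes with microglia (+0.25), and for Six3 in R6/2 negative cells (-0.0038).

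Leaving out 1 sample at a time, the calls ranged from 11 to 19 in R6/2 astrocytes at 12 weeks and 1 to 2 at 6 weeks, 4 to 7 in zQ175 astrocytes at 12 months, 1 to 1 in R6/2 microglia at 12 weeks, 0 to 3 in zQ175 microglia at 12 months, 11 to 15 in R6/2 negative cells at 12 weeks and 1 to 4 in zQ175 negative cells at 12 months. They ranged from 0 to 1 and 2 to 5 for the R6/2 age difference in astrocytes and negative cells, from 4 to 9, 0 to 1 and 1 to 7 for the difference of models in astrocytes, microglia and negative cells, from 5 to 5 and 6 to 9 for R6/2 astrocytes against microglia and negative cells, from 1 to 3 and 0 to 1 for zQ175, and from 87 to 91, 66 to 76 and 100 to 104 between WT fractions. The other comparisons stayed at 0.

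The fractions share pool numbers, and the main fits between fractions did not use this pairing. Deviations of same-numbered samples correlated above 0.1 in 18, 26 and 17 of 37 pairs (astrocytes with microglia, astrocytes with negative cells, and microglia with negative cells). Among the 4 to 6 samples of the same genotype and age, 24, 26 and 26 of 37 correlated best with their own number. With the replicate block, the calls were 88, 73 and 103 between WT fractions, 5 and 8 for R6/2 astrocytes against microglia and negative cells, and 4 for zQ175 astrocytes against microglia. Of all 18194 genes, 14821, 12404 and 15238, then 1033 and 2335, and last 182 were called in these fits. Without the block these numbers were 14731, 12292 and 15158, then 736 and 1837, and last 120. No paired analysis was possible because mutant and WT pools share no numbers, for mutant against WT.

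Most members lie low in the signal range, and a gene not called is not thereby shown to be unchanged. Groups of 4 to 6 pools, unknown sex and batch, and sorted fractions that hold other cells limit every comparison.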
